A study of Mus musculus with 6 samples.

Results

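The distal convoluted tubule is the short stretch of the nephron that reabsorbs sodium chloride through the thiazide-sensitive cotransporter NCC. The 9 genes described here encode NCC, the kinases and the ubiquitin ligase adaptor that set its activity, and the magnesium and potassium transport proteins of the same cells. They were taken as a list of names (Slc12a3, Wnk1, Wnk4, Stk39, Klhl3, Trpm6, Cnnm2, Kcnj10 and Kcnj16). All 9 were measured, among 22180 genes in all, and each through 1 transcript cluster, the set of probes that the array summarises into 1 value.

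RNA came from kidneys of adult mice, 1 Affymetrix Mouse Gene 2.1 ST array per sample. The 3 arrays labelled knockout (Pax28 dKO, replicates 1, 3 and 5) are from mice with floxed Pax2 and Pax8 on both chromosomes and a tamoxifen-activated Cre recombinase expressed from Rosa26, a locus active in most cell types, so Cre was not limited to tubule cells. The 3 controls (replicates 2, 4 and 6) carried no Cre. Tamoxifen (50 mg/kg, intraperitoneal, in corn oil) was given to both groups on 3 consecutive days when the mice were 8 weeks old. A second course followed at 10 weeks. Tissue was collected 14 days after the final injection. Knockout 1 and control 4 are the 2 males, and the other 4 arrays are from females, 2 per group. Separate animals are not stated for the arrays, so every p-value reflects only the spread among these samples, which may be technical.

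Values are on the deposited log2 scale, with array medians between 3.81 and 3.87. Pax8, one of the targeted genes, was 2.58-fold higher on the arrays labelled knockout (10.36 ± 0.24 log2, against 9.0 ± 0.10 in controls, SD, n = 3 each; limma adjusted p = 0.00369). Pax2 stood at 6.25 ± 0.21 log2 there, against 5.98 ± 0.18 in controls, and did not pass (limma adjusted p = 0.189). Which exons are deleted is not stated, so values summarised over the transcript do not check the deletion. Directions below are those of the arrays labelled knockout. On controls 2 and 6 the brown fat gene Ucp1 stood at 7.77 and 7.53 log2, above the 3.53 to 5.12 of the other 4 arrays. A fit without that pair leaves 1 control, control 4, so it cannot show whether a list gene's call depends on the pair.

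In distal convoluted tubule cells, WNK kinases phosphorylate and activate SPAK, the kinase encoded by Stk39, which in turn phosphorylates and activates NCC. The KLHL3 adaptor brings WNK1 and WNK4 to a cullin 3 ubiquitin ligase for degradation. Basolateral potassium channels built of the Kcnj10 and Kcnj16 products set the membrane potential and pass the extracellular potassium signal to the WNK kinases, and TRPM6 admits magnesium from the urine. Loss of NCC causes Gitelman syndrome in people, and mutations of WNK1, WNK4, KLHL3 or CUL3 cause the mirror disease, familial hyperkalaemic hypertension.

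Promoter sequence is shown for 3 of the genes, because the targeted factors bind DNA. Slc12a3 and Stk39 had the 2 largest differences between the groups, and Cnnm2 is the 1 gene of the 9 whose window held a core motif of the Pax2, Pax5 and Pax8 paired domain. RefSeq promoter windows (build GRCm38.p6) matched all 9 genes, with 12 windows in all because Kcnj16 has 4. Each sequence is the 250 bases before the annotated start, 5′ to 3′ on the gene's strand, in lower case with motif matches in capitals: TATAAA in Slc12a3 and GTCACGC in Cnnm2. The positions are chr8:94328958-94329207 (plus strand) for Slc12a3, chr2:68471982-68472231 (minus strand) for Stk39 and chr19:46761359-46761608 (plus strand) for Cnnm2.
Slc12a3: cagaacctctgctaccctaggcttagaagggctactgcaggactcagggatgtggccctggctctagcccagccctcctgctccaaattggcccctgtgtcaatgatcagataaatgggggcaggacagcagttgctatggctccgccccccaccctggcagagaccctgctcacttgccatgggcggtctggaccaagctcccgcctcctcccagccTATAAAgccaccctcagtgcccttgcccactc
Stk39: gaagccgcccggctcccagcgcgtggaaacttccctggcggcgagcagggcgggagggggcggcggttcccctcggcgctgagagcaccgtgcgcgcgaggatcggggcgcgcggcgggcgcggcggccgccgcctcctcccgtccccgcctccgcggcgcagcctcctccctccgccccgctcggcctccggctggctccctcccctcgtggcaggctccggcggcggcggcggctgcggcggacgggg
Cnnm2: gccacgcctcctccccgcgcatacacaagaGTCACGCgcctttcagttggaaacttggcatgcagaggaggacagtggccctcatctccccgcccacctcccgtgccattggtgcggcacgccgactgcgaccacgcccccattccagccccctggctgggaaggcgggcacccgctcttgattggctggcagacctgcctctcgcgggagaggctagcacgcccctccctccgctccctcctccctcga
The Slc12a3 window has a GC content of 61.2% and a TATAAA box whose first base lies 32 bases before the start, the place of a classical TATA box. The Stk39 window is 82.4% GC and holds neither motif. TATAAA, searched on both strands (TTTATA on the other), is in 12.4% of 32851 promoter windows and in those of 2 of the 9 genes, Slc12a3 and Kcnj16. The Pax core GCGTGAC, searched likewise (GTCACGC on the other strand), is in 1.78% of windows and, of the 9 genes, in Cnnm2, starting 220 bases before the start. A match describes these letters only, and the 2 motifs do not overlap in any of the 3 windows.

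None of the 9 genes passed the test of genotype (limma with sex in the model, Benjamini-Hochberg adjusted p under 0.05), where 7.2% of all genes passed. At an unadjusted p under 0.05 there were 2 of 9, Slc12a3 and Stk39, against 22.0% of all genes, so the share is near the background. The log2 differences ran from -0.17 to 0.34, with a median of 0.0 against -0.01 over all genes, and 5 were positive and 4 negative. For 7 of the 9 genes the difference was under 0.2 either way, as for 70.2% of all genes. Every one of the 9 intervals (95%) lay within a 2-fold change in either direction, which also held for 95.5% of all genes. In bulk kidney RNA, fewer cells of a type and less RNA per cell cannot be told apart. Nor can a value be assigned to distal convoluted tubule cells alone.

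Slc12a3, the gene of NCC, had values of 10.8, 11.27 and 11.19 log2 on knockouts 1, 3 and 5 (as labelled), against 11.0, 10.49 and 10.78 log2 on controls 2, 4 and 6. The groups overlapped, since the male array knockout 1 lay below the female control 2. Within each sex the array or arrays labelled knockout were higher, by 0.30 log2 in the single male pair and by 0.34 on average in the females. Adjusted for sex, the level was 1.26-fold higher (log2 difference 0.33 ± 0.09, SE, 95% interval 0.11 to 0.54), and this missed the threshold (limma adjusted p = 0.0822). It passed with a trended robust prior (adjusted p = 0.0225) and after quantile normalization (adjusted p = 0.038). Over the 6 fits with an array left out it did not pass in any, with adjusted p between 0.117 and 0.224. For the genotype difference, leaving out either male gives the same fit as the females alone, so 5 of these 6 fits are different.

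**Figure D1:**
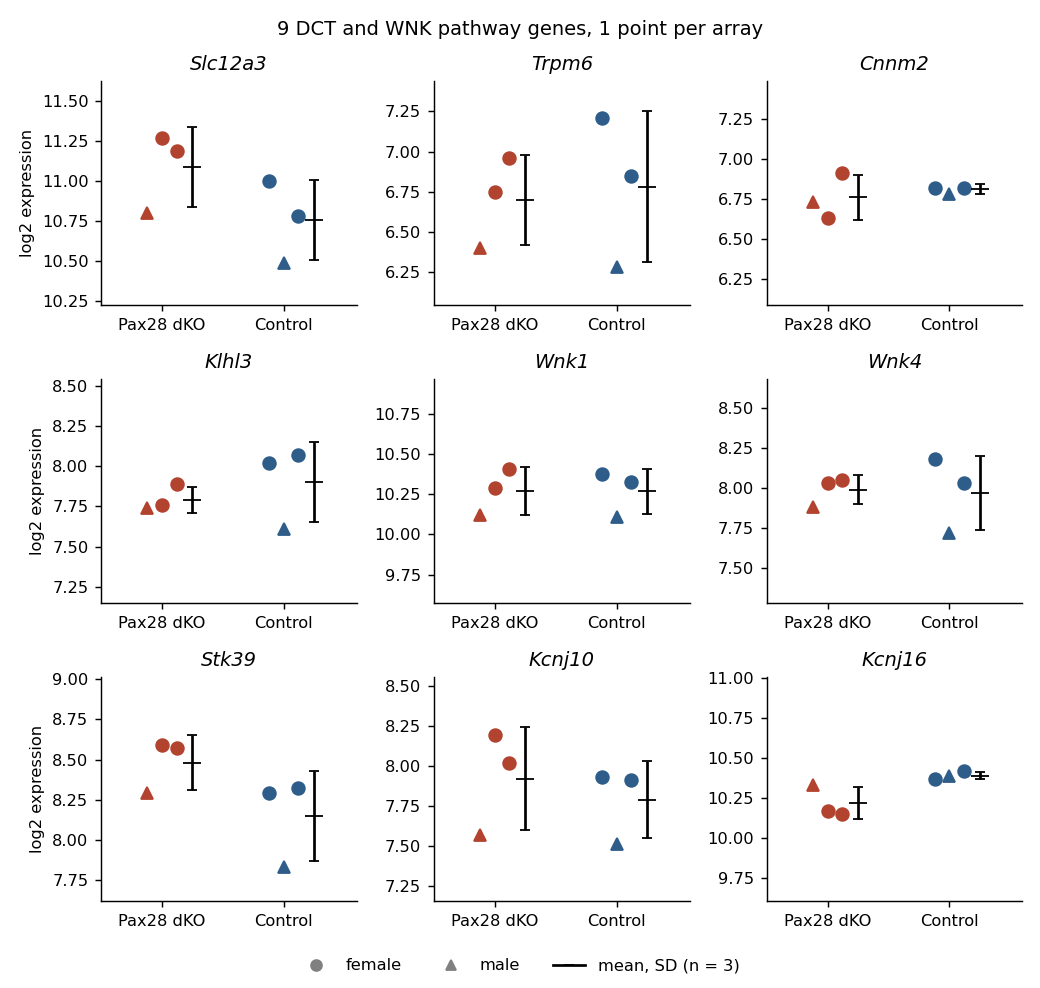
Log2 expression of each of the 9 genes on each array (vertical axis, a 1.4 log2 span in every panel), with the 3 arrays labelled knockout (Pax28 dKO) on the left and the 3 controls on the right; circles are females, triangles males, and bars give the mean and SD (n = 3). The male triangles lie lowest in most panels, and of the 9 genes Kcnj16 alone has groups that do not overlap.

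Stk39, the gene of SPAK, had a pattern close to that of Slc12a3. It stood at 8.29, 8.59 and 8.57 log2 on knockouts 1, 3 and 5, against 8.29, 7.83 and 8.32 log2 on controls 2, 4 and 6. Again the groups overlapped, since before rounding the male knockout 1 lay just below both female controls. Within each sex the difference was positive (0.46 in the male pair, 0.28 in the females). The sex-adjusted difference was 0.34 ± 0.08 log2 (SE, 95% interval 0.14 to 0.53), a 1.26-fold higher level that missed the threshold (limma adjusted p = 0.0563). Stk39 passed with the trended robust prior (adjusted p = 0.0179), after quantile normalization (adjusted p = 0.0435) and when dim genes were left out (adjusted p = 0.0469). With any single array left out, it did not pass (adjusted p between 0.129 and 0.171).

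The kinases upstream of SPAK were nearly level between the groups. Wnk1 had 10.12, 10.29 and 10.41 log2 on knockouts 1, 3 and 5, against 10.38, 10.11 and 10.33 log2 on controls 2, 4 and 6. Its difference was 0.00 ± 0.08 log2 (SE), with an interval of -0.18 to 0.19, or 0.88-fold to 1.14-fold. In the distal convoluted tubule a short WNK1 that lacks the kinase domain is made from an internal promoter, and the single Wnk1 value does not separate it from the full-length kinase. Wnk4 had 7.88, 8.03 and 8.05 log2 on knockouts 1, 3 and 5, and 8.18, 7.72 and 8.03 log2 on controls 2, 4 and 6. The Wnk4 difference was 0.01 ± 0.09 log2 (SE, 95% interval -0.20 to 0.23; limma adjusted p = 0.956). Both kinases were lowest on the 2 male arrays.

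Klhl3, the ligase adaptor, showed 7.74, 7.76 and 7.89 log2 on knockouts 1, 3 and 5, against 8.02, 7.61 and 8.07 log2 on controls 2, 4 and 6. The female arrays labelled knockout lay below both female controls (mean difference -0.22), whereas the male one lay above the male control (0.13). Over both sexes the difference was -0.10 ± 0.10 log2 (SE, 95% interval -0.35 to 0.14; limma adjusted p = 0.631). The genotype by sex term for Klhl3 was 0.36 ± 0.18 log2 (SE) and did not pass (limma adjusted p = 0.78).

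The magnesium genes also did not pass. Trpm6, the apical magnesium channel with a kinase domain of its own, had 6.4, 6.75 and 6.96 log2 on knockouts 1, 3 and 5, against 7.21, 6.28 and 6.85 log2 on controls 2, 4 and 6. Of the 9 genes it spanned the widest range of values, and its difference was -0.07 ± 0.13 log2 (SE, 95% interval -0.38 to 0.23; limma adjusted p = 0.799). Cnnm2, a basolateral membrane protein mutated in familial hypomagnesaemia in people and the gene with the Pax core motif above, had 6.73, 6.63 and 6.91 log2 on knockouts 1, 3 and 5, and 6.82, 6.78 and 6.82 log2 on controls 2, 4 and 6. Its 2 groups were interleaved, with a difference of -0.05 ± 0.10 log2 (SE, 95% interval -0.28 to 0.18; limma adjusted p = 0.818).

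Kcnj10 and Kcnj16 encode Kir4.1 and Kir5.1, which assemble into 1 basolateral potassium channel. Kcnj10 had 7.57, 8.19 and 8.02 log2 on knockouts 1, 3 and 5, against 7.93, 7.51 and 7.91 log2 on controls 2, 4 and 6. Its groups overlapped, with both males lowest, and the difference was 0.14 ± 0.08 log2 (SE, 95% interval -0.07 to 0.34; limma adjusted p = 0.419). Kcnj16 had 10.33, 10.17 and 10.15 log2 on knockouts 1, 3 and 5, against 10.37, 10.39 and 10.42 log2 on controls 2, 4 and 6. It was the 1 gene of the 9 whose groups did not overlap, which was so for 22.5% of all genes and, with the arrays labelled knockout lower, for 10.8%. The Kcnj16 difference was -0.17 ± 0.08 log2 (SE, 95% interval -0.36 to 0.02), and it did not pass (limma adjusted p = 0.272). By exact permutation of the group means (two-sided), p was 0.1 for Kcnj16, the smallest that 3 against 3 arrays allow, and 0.2 or more for the other 8 genes. Unlike the limma fit, this permutation takes no account of sex, so sex differences add to the spread in it.

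**Figure D2:**
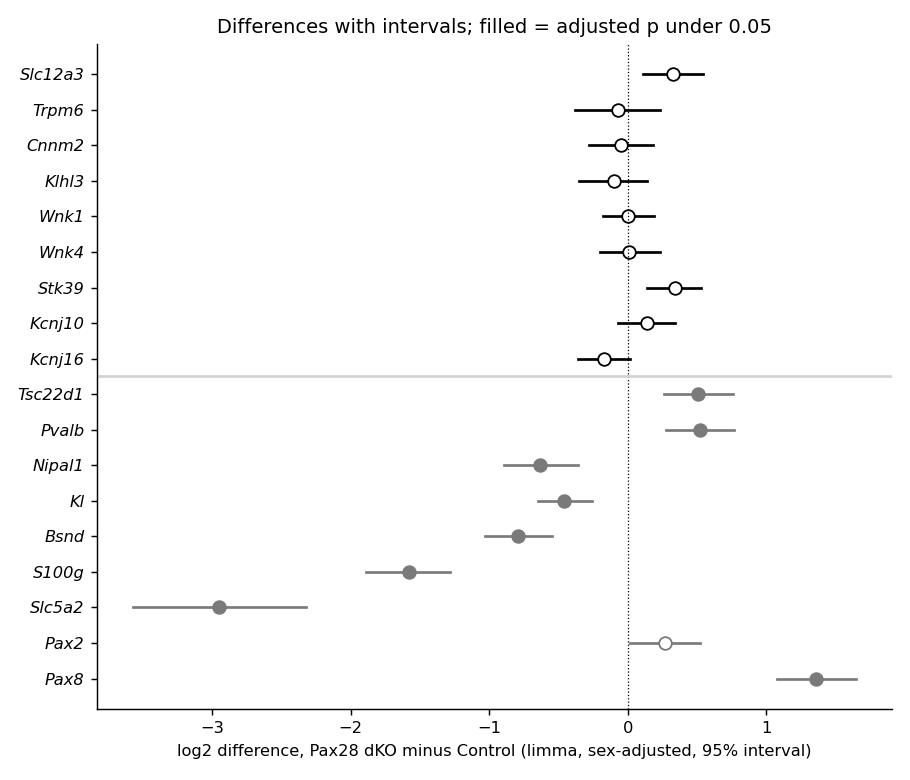
Log2 difference of the arrays labelled knockout (Pax28 dKO) minus Control (horizontal axis, sex-adjusted limma estimate with its 95% interval) for the 9 genes above the grey line and for 9 other genes named in the text below it; filled points have an adjusted p under 0.05. The 9 intervals all lie between -0.38 and 0.54, while S100g and Slc5a2 below the line stand at -1.58 and -2.95.

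The 9 genes tended to be lower in males. In the same model, the male minus female value was negative for 8 of 9 genes, but none of the 9 passed after adjustment (limma, 1.87% of all genes passed). At an unadjusted p under 0.05 there were 6 of 9 (Slc12a3, Trpm6, Wnk1, Wnk4, Stk39 and Kcnj10), all lower in males, against 8.93% of all genes lower in males at that level. Both male arrays lay below all 4 female arrays for 6 of 9 genes (Trpm6, Klhl3, Wnk1, Wnk4, Stk39 and Kcnj10), against 10.5% of all genes. These genes were measured on the same 2 male arrays and are not independent. The tendency was not particular to the 9 genes. Other distal convoluted tubule markers also had negative male minus female values, among them Pvalb (-0.40), Sall3 (-0.37) and Calb1 (-0.36), and only Emx1 did not (0.01). Connecting tubule genes were likewise negative, down to -0.46 for Scnn1b, with only Kl positive (0.12). None of these passed for sex after adjustment (limma).

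Trpm6 had the largest sex difference of the 9, with 6.34 log2 as the mean of the 2 males and 6.94 log2 as that of the 4 females (difference -0.61 ± 0.14, SE, 95% interval -0.93 to -0.28; limma adjusted p = 0.0895). Kcnj10 averaged 7.54 log2 in males and 8.01 log2 in females (-0.47 ± 0.09, SE; limma adjusted p = 0.0599). For Slc12a3 the means were 10.64 log2 in males and 11.06 log2 in females (-0.42 ± 0.10, SE; limma adjusted p = 0.0916). Kcnj16 was the exception in sign, at 10.36 log2 in males and 10.28 log2 in females (limma adjusted p = 0.701). NCC protein is known to be more abundant in female than in male rodents, and protein was not measured here. The genotype difference did not depend on sex past the threshold for any of the 9 genes (limma interaction, lowest adjusted p = 0.78, with 0 of 9 at an unadjusted p under 0.05, against 6.99% of all genes). Of all genes, 0.00451% passed that test.

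Each gene was also set against its closest paralog or partner on the same array, a comparison added after the data were seen. The quantity is the log2 difference of the 2 genes, each centred on its own mean over the 6 arrays, so it shows unequal change and not which of the 2 moved. Slc12a3 was set against Slc12a1, the gene of the loop diuretic-sensitive cotransporter NKCC2 of the thick ascending limb. This difference was 0.17, 0.35 and 0.33 on knockouts 1, 3 and 5, against -0.03, -0.44 and -0.39 on controls 2, 4 and 6. The groups did not overlap, with a mean shift of 0.57 log2 (0.61 in the male pair and 0.55 in the females). Slc12a1 itself stood at 11.0 ± 0.15 log2 there and 11.24 ± 0.12 log2 in controls (SD, n = 3; log2 difference -0.25 ± 0.08, SE; limma adjusted p = 0.136). The exact two-sided permutation p of the shift, also without sex, was 0.1, the smallest possible, and 0.52 after adjustment over the 7 pairs.

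In the other 6 pairs the groups overlapped, and 1 of 7 is no larger a share than the 22.5% of single genes whose groups did not overlap. The shift was 0.31 log2 for Stk39 against Oxsr1, the gene of the related kinase OSR1, and 0.31 for Kcnj10 against its channel partner Kcnj16. Cnnm2 against Cnnm4 shifted by 0.20 and Klhl3 against Klhl2, an adaptor that also targets WNK kinases, by 0.19. Wnk4 against Wnk1 (0.01) and Trpm6 against its paralog Trpm7 (-0.02) were close to 0. Exact permutation p-values of these 6 pairs ran from 0.2 to 0.9.

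**Figure D3:**
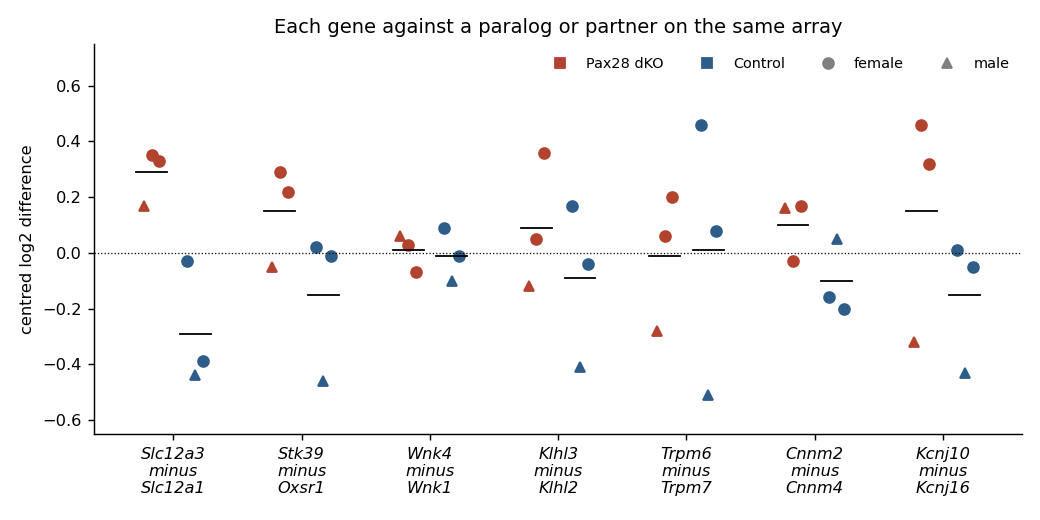
Centred log2 difference between each gene and a paralog or partner on the same array (vertical axis), for 7 pairs, with the arrays labelled knockout (Pax28 dKO, red) left of the controls (blue); circles are females, triangles males, and lines are group means. Slc12a3 minus Slc12a1 is the 1 pair in which the groups do not overlap, at 0.17 to 0.35 on the arrays labelled knockout and -0.44 to -0.03 in controls.

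Of 18 further network genes 1 passed as higher (4.12% of all genes did) and 0 as lower (3.08%), with a median log2 difference of -0.01 and a range of -0.41 to 0.51. At an unadjusted p under 0.05 there were 5 of 18, beside 22.0% of all genes. The gene that passed was Tsc22d1, which encodes a TSC22 domain protein of a family that binds WNK kinases and their partner NRBP1. Tsc22d1 had 7.82, 8.19 and 8.22 log2 on knockouts 1, 3 and 5, against 7.51, 7.59 and 7.61 log2 on controls 2, 4 and 6, so the groups did not overlap. It averaged 8.08 ± 0.22 log2 on the arrays labelled knockout and 7.57 ± 0.05 log2 in controls (SD, n = 3; log2 difference 0.51 ± 0.11, SE; limma adjusted p = 0.0383). Its call was lost when control 2, control 6, knockout 3 or knockout 5 was left out (adjusted p up to 0.131), without the sex term (0.0883), after median centring (0.0563) and with every row tested (0.123). The brightest of the network genes were Cul3, the scaffold of the KLHL3 ligase (log2 difference -0.04 ± 0.08, SE), Nedd4l, a ubiquitin ligase that acts on the epithelial sodium channel and on NCC (0.04 ± 0.08), and Cab39l, a SPAK-activating scaffold (-0.24 ± 0.09), and none of these 3 passed. Oxsr1 differed by 0.03 ± 0.08.

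Of 16 further magnesium genes, 1 passed as lower and 0 as higher, with a median of -0.24 and 11 of 16 at an unadjusted p under 0.05. Over all genes 3.08% passed as lower, 4.12% as higher and 22.0% had an unadjusted p under 0.05, here and for the lists below. Nipal1, of a family of magnesium transporters, stood at 5.01 ± 0.21 log2 on the arrays labelled knockout and 5.63 ± 0.05 log2 in controls (SD, n = 3; log2 difference -0.63 ± 0.11, SE; limma adjusted p = 0.0248). That call was lost without control 2, control 6, knockout 3 or knockout 5 (adjusted p up to 0.0997). The 3 brightest genes of this list were negative without passing: Egf, the magnesium-regulating growth factor made by the distal convoluted tubule (-0.30 ± 0.09, SE), Pcbd1, a transcriptional cofactor (-0.37 ± 0.09), and Fxyd2, the gamma subunit of the sodium pump (-0.31 ± 0.08), with limma adjusted p between 0.0528 and 0.11. Of 5 potassium, chloride and sodium pump partners, 1 passed as lower and 4 of 5 were at an unadjusted p under 0.05 (median -0.31). It was Bsnd, barttin, an accessory subunit of basolateral chloride channels (7.31 ± 0.09 log2 on the arrays labelled knockout, 8.1 ± 0.31 log2 in controls, SD, n = 3; log2 difference -0.79 ± 0.10, SE; limma adjusted p = 0.0101). Leaving out control 2 or control 6 ended the Bsnd call (adjusted p up to 0.0527). In that list Atp1b1, the pump's beta subunit, differed by 0.04, and Kcnj15 by -0.31 without passing. None of 7 other Slc12 cotransporters passed (median -0.15), with 3 of 7 at an unadjusted p under 0.05 (22.0% of all genes). The brightest of them were Slc12a1, Slc12a2 (-0.30) and Slc12a7 (-0.22).

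Markers of the distal convoluted tubule had a summed level (log2) of 12.57 to 12.91 on the arrays labelled knockout and 12.78 to 13.03 in controls. The sum is of unlogged values, so the brightest markers, Egf, Calb1 and Tmem52b, set most of it and Pvalb adds little. Calb1 is also on the connecting tubule list. Of 8 measured markers other than the 9 genes, 1 passed as higher and 0 as lower (median -0.12). At an unadjusted p under 0.05 were 6 of 8, of both signs, against 22.0% of all genes. On the negative side, without passing, stood Emx1 (-0.35), Tmem52b (-0.30), Egf (-0.30) and Ppp1r1a (-0.27), and on the positive side Tfap2b (0.28). Pvalb, parvalbumin, a calcium-binding protein of the early distal convoluted tubule, averaged 6.63 ± 0.20 log2 on the arrays labelled knockout and 6.11 ± 0.30 log2 in controls (SD, n = 3; log2 difference 0.52 ± 0.10, SE; limma adjusted p = 0.0326). With an array left out, its call held only without knockout 3. In the next segment, the connecting tubule, 2 of 8 genes passed as lower and none as higher. The median was 0.02, 3 of 8 differences were negative, and 4 of 8 had an unadjusted p under 0.05. The summed level (log2) of this list was 13.19 to 13.29 on the arrays labelled knockout and 13.53 to 13.71 in controls. Its brightest genes again set most of the sum. Trpv5, the apical calcium channel, stood at 0.44 ± 0.15 log2 (SE; limma adjusted p = 0.135). S100g, the calcium-binding protein calbindin-D9k, was 3.0-fold lower at 9.87 ± 0.21 log2 on the arrays labelled knockout and 11.46 ± 0.14 log2 in controls (SD, n = 3; limma adjusted p = 0.00283), and passed with any single array left out. Kl, klotho, the coreceptor for the phosphate hormone FGF23, differed by -0.46 ± 0.08 log2 (SE; limma adjusted p = 0.0244), a call lost with each array left out in turn. In the thick ascending limb, upstream, Bsnd and the paracellular pore gene Cldn10 (-0.48 ± 0.10) passed as lower and the calcium-sensing receptor gene Casr (0.35 ± 0.08) as higher, of 9 genes (median 0.02, 7 of 9 at an unadjusted p under 0.05). With an array left out, Cldn10 kept its call only in the fit of the females, and Casr in none. With every row tested, the calls of Nipal1, Bsnd, Pvalb, Kl, Cldn10 and Casr were lost (adjusted p between 0.0541 and 0.138), and without the sex term those of the same genes other than Nipal1 (0.054 to 0.185). Casr was also lost after median centring (0.092).

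Markers of several other cell types differed between the groups. Over all genes 4.12% passed as higher and 3.08% as lower, and 22.0% had an unadjusted p under 0.05. Of 8 macrophage markers 7 passed as higher and 0 as lower (median 1.33), among them Cd14 (log2 difference 2.0), Cd68 (1.27), C1qb (1.5) and C1qa (1.44), and the log2 of their summed level ran from 9.9 to 10.57 on the arrays labelled knockout and from 8.97 to 9.12 in controls. Of 6 fibroblast markers 4 passed as higher (median 0.82, summed level 10.53 to 10.87 against 9.75 to 10.21 in controls), which were Col1a1 (1.56), Col3a1 (1.43), Col1a2 (0.94) and Dcn (0.70). All 4 measured markers of proliferating cells passed as higher, with log2 differences of 2.46 for Mki67, 1.94 for Top2a, 1.86 for Ccna2 and 1.38 for Mcm5. Of 8 proximal tubule markers 3 passed as lower: Slc5a2, the glucose transporter SGLT2 (-2.95 ± 0.26, SE), Slc5a12, a lactate transporter (-1.65 ± 0.24), and Slc34a1, the phosphate transporter (-0.47 ± 0.08). The list median was -0.41, with 7 of 8 at an unadjusted p under 0.05. Of the 8 differences 7 were negative, and that of Slc13a3 was positive (0.25). Slc5a2 passed with any single array left out. Without control 2 or control 6 the call was lost for Slc5a12, Slc34a1 and Dcn, and without control 2 also for Ccna2. Without knockout 5 it was lost for Slc5a12 and Slc34a1, and without knockout 3 for Slc34a1. With every row tested these same 4 genes lost their calls (limma adjusted p between 0.0601 and 0.085). Dcn also lost its call without the sex term (limma adjusted p = 0.105). None of 6 endothelial, 4 Schwann cell or glial and 6 brown fat and adrenal markers passed in limma, with 1, 1 and 0 at an unadjusted p under 0.05. The glial list had a summed level of 5.76 to 5.89 on the arrays labelled knockout and 5.57 to 5.89 in controls. Of its 4 genes, Sox10 and S100b were at 3.37 log2 or lower on all arrays, under every array's median. Gfap was at 3.13 to 3.38 log2 on the arrays labelled knockout and 3.24 to 3.82 log2 in controls. Mbp was above every array's median, at 4.77 to 5.14 log2 on the arrays labelled knockout and 4.46 to 4.86 log2 in controls. The glial list bears on Kcnj10, which glia also express. The part of these cell types in the values of the 9 genes was not tested.

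**Figure D4:**
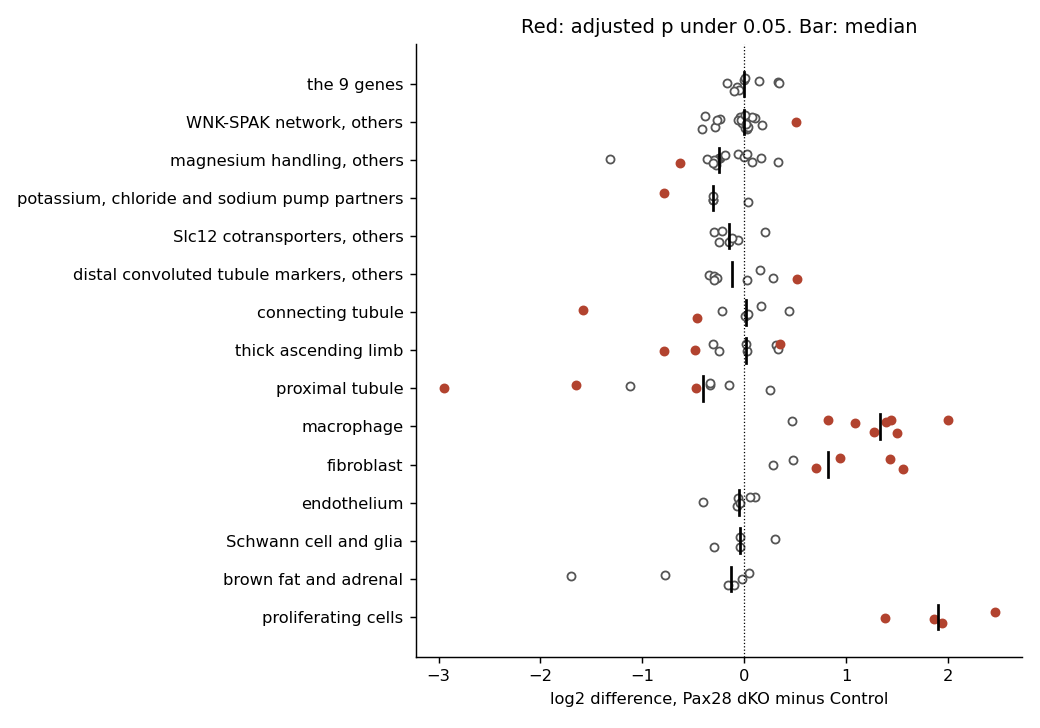
Log2 difference of the arrays labelled knockout (Pax28 dKO) minus Control (horizontal axis) for each measured gene, by list; red points have an adjusted p under 0.05 and black bars are list medians. The 9 genes lie between -0.17 and 0.34 with none in red, and the macrophage list has its median at 1.33.

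Among 112 genes (the measured list genes and the other 8 of the 9), the array pattern nearest to that of Slc12a3 belonged to Mbp, then Stk39, then Kcnj10. Likeness was measured as the root mean square difference of gene-centred log2 values over the 6 arrays, which was 0.07 for Mbp, 0.09 for Stk39 and 0.12 for Kcnj10. Mbp, the myelin basic protein gene, is on the glial list, and its log2 difference was 0.30 ± 0.08 (SE; limma adjusted p = 0.0713). All 6 arrays share the genotype and sex differences given above, so the measure is a description of these arrays.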

How the data were processed

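Kidney RNA (400 ng per sample) was labelled and hybridised to 6 arrays. The deposited values are log2 expression per transcript cluster. The submitters' processing notes name RMA, limma and R 3.4.0, with no role for each. Any filter, and the genome build, is not given in the sources used here. Of 41345 clusters, 23521 had 1 gene symbol in the platform annotation, 1814 several and 16010 none. Symbols were checked through RefSeq gene identifiers (GRCm38.p6), and the brightest cluster per gene was used, which left 22180 genes.

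Differences were fitted with limma 3.58.1 in R 4.3.3, with genotype and sex, over all genes (3 residual and 6.72 total degrees of freedom). The threshold was a Benjamini-Hochberg adjusted p of 0.05. Array number limits the precision, and probes differ in response, so the order of levels between genes is uncertain. Levels of different genes were used to pick the brightest of a list, to sum lists and to set glial genes against array medians. Genes below a mean of 2.73 log2 were called dim, and all 9 genes lay above it. The fit was tested on simulated data. The members and the 15 lists of 116 genes (104 measured) were chosen with earlier results of these data known, and the red blood cell list had no measured gene. Of each list the text names passing genes, at most 4 by p, and the 3 brightest of the first 4 lists. Other named genes were chosen after their values were seen. The other list genes are not reported here.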

Additional observations from a re-analysis of the deposited data

Results flagged for a closer look

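Klhl3 was singled out because its male difference was positive while both female arrays labelled knockout lay below both female controls. The difference was 0.13 log2 in the male pair and -0.22 on average in the females. The genotype by sex term was 0.36 ± 0.18 log2 (SE) and did not pass (limma adjusted p = 0.78). The male value rests on 1 array per group. Trpm6 (0.12 in the male pair, -0.17 in the females) and Wnk4 (0.16 and -0.06) also had opposite signs, but their female groups overlapped.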

How the results depend on the processing

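The count of the 9 genes that passed stayed 0 without sex, in females only, with any single array left out and with array weights. The same count came with median centring, averaged clusters and every row tested. It was 2 with the trended robust prior, 2 after quantile normalization and 1 with dim genes left out, all from Slc12a3 and Stk39, and the cause was not tested. Genes with a difference near 0 changed sign in some fits, none past the threshold: Wnk4 was -0.06 in females only and after median centring, and -0.01 with array weights. Without controls 2 and 6 only the male control is left, so the fit gives the male pair's difference again (Trpm6 0.12, Klhl3 0.13). That fit is therefore not a further check of the sign. With single arrays left out, Trpm6 ranged from -0.17 to 0.06, Cnnm2 from -0.13 to 0.03, Wnk4 from -0.06 to 0.08, and the sex difference of Cnnm2 from -0.10 to 0.02. List genes passing as higher numbered 18, and 10 with every row tested and 10 to 16 with single arrays left out. Those passing as lower numbered 8, and 5 without sex, 17 with the trended prior and 15 after median centring. They numbered 2 with every row tested and 2 to 9 with single arrays left out. Of all genes 1596 passed, and 471 without sex and 239 with every row tested. With single arrays left out 344 to 1249 passed, 344 without control 2 and 356 without control 6. No paired analysis was possible because the groups share no replicate numbers.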
